A study of Mus musculus with 12 samples.

Results

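Marker genes of brain cells other than microglia were examined in cultures labelled as primary mouse microglia, which are the macrophages that live in the brain. The 33 genes, of 19938 genes with a probe set of their own, were 7 astrocyte, 4 oligodendrocyte, 4 oligodendrocyte lineage and precursor, 6 neuron, 5 fibroblast, 3 mural cell and 4 endothelial markers. A probe set was used only where the marker was its single gene symbol, and each of the 33 genes had exactly 1 such probe set. RNA levels were measured on 12 Affymetrix mouse gene arrays and are given as log2 signals. The 4 groups of 3 arrays were wild-type control (CN1 to CN3), wild-type ischemia (CH1 to CH3), TLR4 knockout control (TN1 to TN3) and TLR4 knockout ischemia (TH1 to TH3). Ischemia meant 24 h under hypoxic or hypoglycemic conditions and control meant the same 24 h under normoxic or normoglycemic conditions. Which of the 2 an array had is not stated. Every culture, controls included, then had 24 h of reperfusion, so all arrays show cells after that second period. Age, strain, the knockout allele and the way the microglia were isolated are not given in the sources used here. The source name of the CH arrays reads as control normoxia, whereas their titles and the study's key place them under hypoxia, and here the titles decide. Myocytes are named as the source of the RNA in the extraction text, against microglia in every other label.

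Microglia for culture are commonly taken from mixed glial cultures of the young brain, where they grow on a bed of astrocytes together with oligodendrocyte precursors and with fibroblasts, mural cells and endothelial cells from the meninges and vessels. Such cells can be carried into a microglial culture, and neurons usually die out of it. Astrocytes are recognised by the filament protein Gfap and by glutamate transporters, neurons by nuclear and synaptic proteins, fibroblasts by collagens, and endothelium by junction proteins. Oligodendrocyte precursors carry the growth factor receptor Pdgfra and the transcription factors Olig1 and Olig2, and replace Pdgfra with myelin proteins as they mature.

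Most macrophage markers were bright on the arrays, and Tlr4 did not separate the genotypes. The complement receptor subunit Itgam, the growth factor receptor Csf1r and the lysosomal protein Cd68 had mean signals of 11.98, 12.27 and 13.15 over the 12 arrays, above at least 98.75% of all probe sets. Among 15 microglia and macrophage markers with a probe set, the homeostatic receptors P2ry12 (5.75) and Gpr34 (4.84) were dim. The Tlr4 signal was 8.74 ± 0.18 (SD, n = 6) in wild-type and 8.71 ± 0.22 (SD, n = 6) in knockout-labelled arrays, with overlapping ranges, so the label is used as a name only; whether the probes lie in a deleted part is not known here. Array CN1 stood apart for the non-microglial markers. It was the highest of the 12 arrays for 14 of the 33 (42.4%), against 9.22% of all genes, while CH2 was the lowest for 11 (33.3%), against 17.1% of all genes. Nothing in the labels tells whether the 3 arrays of a group are separate cultures or mice; a p-value here reflects only their spread, which could be technical. In bulk RNA, fewer cells of a type and less RNA per cell cannot be told apart.

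Many of the 33 markers were dim. A line for dim signals was drawn at the 95th percentile of 1190 olfactory and vomeronasal receptor genes, which are largely silent outside sensory neurons. It lay at 5.97 over all arrays, above 42.5% of all probe sets, and between 5.90 and 6.07 in the 4 groups. In all 4 groups 13 of the 33 markers lay above it, and in at least 1 group 19 did, whereas 13 of the 15 microglia and macrophage markers exceeded it in all 4 groups. The markers above the line in every group were 1 of 7 astrocyte genes, 3 of 4 oligodendrocyte genes, 3 of 4 lineage genes, none of 6 neuron genes, 3 of 5 fibroblast genes, 2 of 3 mural genes and 1 of 4 endothelial genes. The 33 mean signals ran from 3.29 for the matrix proteoglycan Lum to 8.31 for the myelin enzyme Cnp, with a median at the 42.0th percentile of all probe sets. Probe sets differ in brightness for the same RNA, so levels of different genes are not amounts to be ranked, and a dim signal does not show that a gene is silent.

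**Figure D1:**
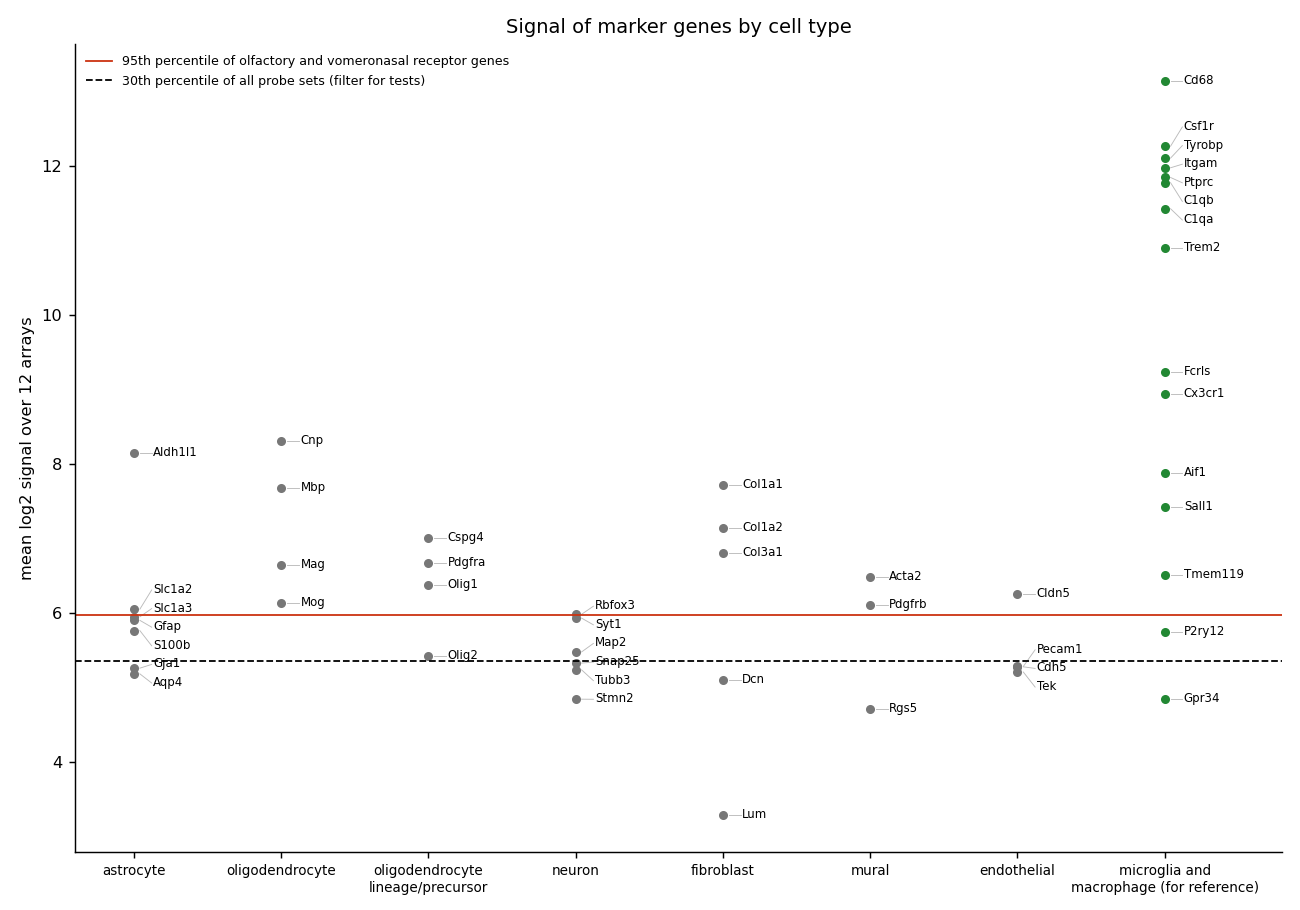
Mean log2 signal over 12 arrays of each marker gene, by cell type, with the microglia and macrophage markers for reference. The red line at 5.97 is the 95th percentile of olfactory and vomeronasal receptor genes and the dashed line at 5.36 is the filter for tests. Cnp, Aldh1l1, Col1a1 and Mbp have the highest means of the 33, and most others lie near or under the red line.

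Pdgfra and Olig1, both of the oligodendrocyte lineage, had the widest ranges of the 33 markers over the 12 arrays (2.56 and 1.36). Pdgfra, a receptor for platelet-derived growth factor A counted here as a precursor marker, had signals of 8.53, 6.77 and 6.42 in CN1 to CN3, 7.65, 6.23 and 6.37 in CH1 to CH3, 6.41, 6.56 and 5.97 in TN1 to TN3, and 6.15, 6.37 and 6.67 in TH1 to TH3. Both wild-type arrays numbered 1 were above the other 10, and those 10 overlapped across all 4 groups. The fibroblast collagen Col1a1 was also highest in CN1 (8.51) but read 7.43 in CH1. Which cells gave the Pdgfra signal was not tested. Olig1, a transcription factor of the lineage, gave 7.27, 6.49 and 6.41 in CN, 7.01, 6.05 and 6.09 in CH, 6.42, 6.26 and 6.28 in TN, and 5.91, 6.19 and 6.10 in TH. The same arrays CN1 and CH1 were highest for it. Olig2, its partner that specifies the lineage, was below the dim line in every group. It gave 5.90, 5.55 and 5.28 in CN, 5.77, 5.43 and 5.18 in CH, 5.42, 5.23 and 5.57 in TN, and 5.39, 5.21 and 5.15 in TH, with CN1 and CH1 again on top but by a narrow margin.

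Cspg4, the NG2 proteoglycan of precursors and also of pericytes, did not share the pattern. Its signals were 7.08, 6.86 and 6.69 in CN, 6.84, 7.08 and 6.58 in CH, 7.16, 6.79 and 7.13 in TN, and 7.62, 7.11 and 7.18 in TH, and CN1 and CH1 lay among the others. Map2, a microtubule protein counted here as a neuron marker and also found in young oligodendrocytes, is given because its values were seen to follow the lineage genes. It read 6.37, 5.57 and 5.42 in CN, 6.05, 5.13 and 5.32 in CH, 5.40, 5.47 and 5.09 in TN, and 5.40, 5.35 and 5.14 in TH. Only CN1 and CH1 exceeded the dim line for Map2, and every other array was under it.

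CN1 and CH1 both exceeded all other arrays for 6 of the 33 markers. All 6 were among the 22 bright enough to be tested (27.3%, against 1.68% of the 15273 genes tested). These were Pdgfra, Olig1, Olig2, Map2, the astrocyte glutamate transporter Slc1a3 and the myelin adhesion protein Mag. Olig2 and Map2, with means of 5.42 and 5.48, passed the filter of 5.36 only through their values in CN1 and CH1. Their part of the 27.3% is thus no support for the pattern. The arrays CN2 and CH2 were both highest for 1 of 22, Cnp, and for 6.54% of genes tested. For CN3 and CH3, TN1 and TH1, TN2 and TH2, and TN3 and TH3 the count was 0 of 22, against 1.6%, 1.36%, 1.32% and 6.14% of genes tested. The 4 lineage genes averaged 7.20 in CN1 and 6.82 in CH1, and 6.06 to 6.42 in the other 10 arrays. None of 11 further oligodendrocyte markers, of which 6 were bright enough to be tested, exceeded all other arrays in both CN1 and CH1. Sox10 was highest in CN1 (7.36) but read 6.75 in CH1, under TN3 (7.17). The dim Gpr17 read 5.75 in CN1 and 5.15 in CH1. On the same arrays the 15 microglia and macrophage markers averaged 9.46 in CN1, the lowest of the 12, and 9.63 in CH1, against 10.23 in CN2 and 10.22 in CH2. The part of the microglial signal in the lineage pattern was not tested.

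**Figure D2:**
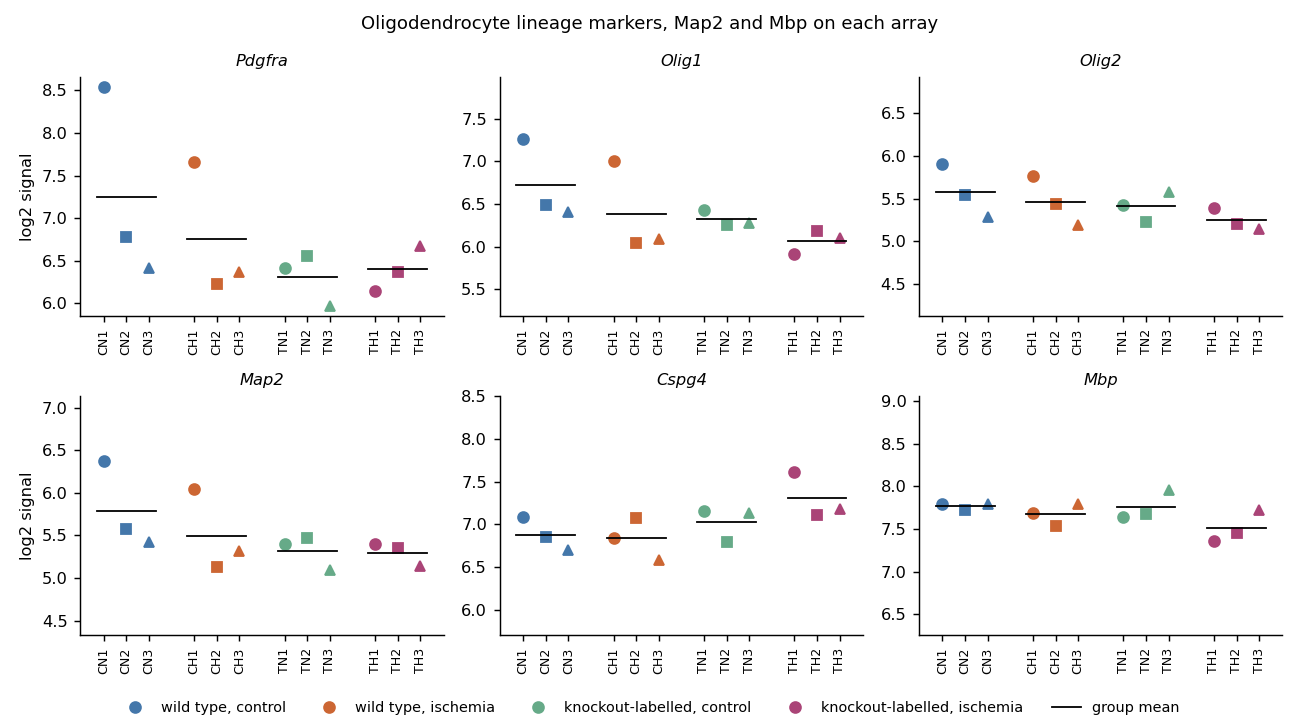
Log2 signal of 4 oligodendrocyte lineage genes, Map2 and the myelin gene Mbp on each of the 12 arrays; circles, squares and triangles are arrays numbered 1, 2 and 3, and black lines are group means (n = 3). CN1 and CH1 are the 2 highest arrays for Pdgfra, Olig1, Olig2 and Map2, and not for Cspg4 or Mbp.

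To show the regulatory sequence of genes that were high on the same arrays, the 250 bases upstream of the start site are given for Pdgfra, Olig2 and Map2, from RefSeq on GRCm38.p6, plus strand. They lie at chr5:75152001-75152250, chr16:91225300-91225549 and chr1:66175079-66175328. Capitals mark E-boxes, the motif CANNTG that basic helix-loop-helix factors such as Olig1 and Olig2 bind, searched on both strands of the window, on which it reads as the same pattern.
Pdgfra: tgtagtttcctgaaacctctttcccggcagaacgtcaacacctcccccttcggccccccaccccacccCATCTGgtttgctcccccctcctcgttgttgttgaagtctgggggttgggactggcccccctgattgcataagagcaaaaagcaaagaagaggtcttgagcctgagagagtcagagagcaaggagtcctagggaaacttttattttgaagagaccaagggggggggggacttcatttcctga
Olig2: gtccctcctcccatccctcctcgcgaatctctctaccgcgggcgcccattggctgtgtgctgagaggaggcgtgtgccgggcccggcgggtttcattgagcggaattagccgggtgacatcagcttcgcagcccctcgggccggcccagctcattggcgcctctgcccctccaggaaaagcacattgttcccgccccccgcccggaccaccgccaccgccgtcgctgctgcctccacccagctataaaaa
Map2: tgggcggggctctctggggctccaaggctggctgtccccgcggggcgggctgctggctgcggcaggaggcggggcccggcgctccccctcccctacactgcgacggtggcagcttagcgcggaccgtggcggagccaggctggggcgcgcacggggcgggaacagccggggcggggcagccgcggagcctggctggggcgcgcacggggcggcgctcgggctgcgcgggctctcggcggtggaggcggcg
The Pdgfra window held 1 E-box, CATCTG, 182 bases from the start site, and the Olig2 and Map2 windows held none. An E-box was present in 66.2% of 32851 windows of this length and in 13 of the 22 markers matched in the sequence table. A match is a description of letters, and the absence of one says only that they are not in this window. Guanine and cytosine made up 54.4% of the Pdgfra window, 66.8% of that of Olig2 and 81.2% of that of Map2.

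Among genes of mature oligodendrocytes, Mag was the 1 highest in both CN1 and CH1. Mbp, the basic protein of compact myelin, read 7.80, 7.73 and 7.79 in CN, 7.68, 7.54 and 7.79 in CH, 7.63, 7.67 and 7.96 in TN, and 7.36, 7.46 and 7.72 in TH. The 4 groups overlapped, and neither CN1 nor CH1 was raised. Mag read 7.01, 6.53 and 6.73 in CN, 6.87, 6.65 and 6.72 in CH, 6.49, 6.72 and 6.63 in TN, and 6.42, 6.45 and 6.45 in TH, where all 3 arrays were below every array of the other groups. Mog, a surface protein of the outer myelin sheath, ranged from 5.63 in TH3 to 6.36 in CH2 and straddled the dim line. Cnp, an enzyme of uncompacted myelin that is also known as an interferon-induced gene, had the highest mean signal of the 33 markers. Its signals were 7.96, 8.57 and 7.95 in CN, 8.51, 8.86 and 8.41 in CH, 8.25, 8.19 and 8.47 in TN, and 8.12, 8.14 and 8.23 in TH. The CH arrays were high, but CN2 exceeded 2 of them, so the wild-type groups overlapped.

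Of the 7 astrocyte markers, Aldh1l1 alone was above the dim line in all 4 groups, and Slc1a2 was in 3. Gfap read 6.12, 5.95 and 6.21 in CN, 5.90, 5.56 and 5.77 in CH, 5.84, 6.07 and 5.97 in TN, and 5.90, 5.80 and 5.72 in TH, near the dim line throughout. Its CN and CH arrays did not overlap. The glutamate transporters Slc1a2 and Slc1a3, which clear glutamate from synapses, had means of 6.05 and 5.95, and the calcium-binding protein S100b one of 5.76. The water channel Aqp4 (5.18) and the gap junction protein Gja1 (5.26), both typical of astrocytes, were under the filter for tests. Aldh1l1, a folate enzyme widely used to label astrocytes, stood at the 74.8th percentile of probe sets. It gave 8.16, 8.11 and 8.11 in CN, 8.63, 8.45 and 8.51 in CH, 7.84, 8.16 and 7.73 in TN, and 7.79, 8.17 and 8.20 in TH. The CH arrays were above all other arrays, and TN and TH overlapped.

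None of the 6 neuron markers exceeded the dim line in all 4 groups. Rbfox3, the nuclear antigen NeuN, varied by only 0.30 over the 12 arrays. It read 5.96, 5.96 and 5.97 in CN, 5.87, 5.88 and 6.02 in CH, 6.05, 6.16 and 5.98 in TN, and 6.10, 5.94 and 5.87 in TH, at or beside the line. Syt1, the calcium sensor of synaptic vesicles, read 6.05, 5.90 and 5.74 in CN, 5.78, 5.61 and 5.95 in CH, 6.12, 6.14 and 6.31 in TN, and 6.05, 5.75 and 5.77 in TH, with TN above all other arrays. The neuronal tubulin Tubb3 (5.23), the synaptic membrane protein Snap25 (5.33) and the growth cone protein Stmn2 (4.84) were under the filter.

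The collagens of fibroblasts were above the dim line on every array, and CN1 was the highest array for the first 2 of them. Col1a1, a chain of type I collagen, read 8.51, 7.62 and 7.71 in CN, 7.43, 7.33 and 7.65 in CH, 7.73, 7.96 and 7.77 in TN, and 7.66, 7.67 and 7.53 in TH. CN1 was far above the other 11 arrays, and CN2 fell below CH3, so CN and CH overlapped. Col1a2, the other chain, followed with 7.64, 7.09 and 7.24 in CN, 6.82, 6.86 and 7.14 in CH, 7.18, 7.40 and 7.18 in TN, and 7.12, 7.13 and 6.95 in TH. Col3a1, the collagen of loose connective tissue, read 7.01, 6.91 and 6.82 in CN, 6.54, 6.53 and 6.71 in CH, 6.80, 6.88 and 7.02 in TN, and 6.93, 6.90 and 6.54 in TH, and its CN and CH arrays did not overlap. The proteoglycan Dcn exceeded 5.44 in CN1 alone, and Lum had the lowest mean of the 33.

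Of the 33 markers, 2 of 3 mural and 1 of 4 endothelial genes exceeded the dim line in all 4 groups. Acta2, the smooth muscle actin of mural cells and activated fibroblasts, read 7.05, 6.19 and 6.55 in CN, 6.34, 6.10 and 6.96 in CH, 6.49, 6.72 and 6.35 in TN, and 6.26, 6.38 and 6.40 in TH, highest in CN1 and CH3. Pdgfrb, the growth factor receptor of pericytes, ranged from 5.85 in CH2 to 6.32 in CN1, and the pericyte gene Rgs5 was dim at 4.71. Among endothelial genes, Pecam1 (5.28), the cadherin Cdh5 (5.28) and the angiopoietin receptor Tek (5.21) were under the filter. Cldn5, the tight junction protein of the blood-brain barrier, read 6.47, 6.27 and 6.41 in CN, 6.02, 5.96 and 5.95 in CH, 6.27, 6.36 and 6.30 in TN, and 6.47, 6.37 and 6.11 in TH. All 3 CH arrays were below the other 9, which overlapped.

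**Figure D3:**
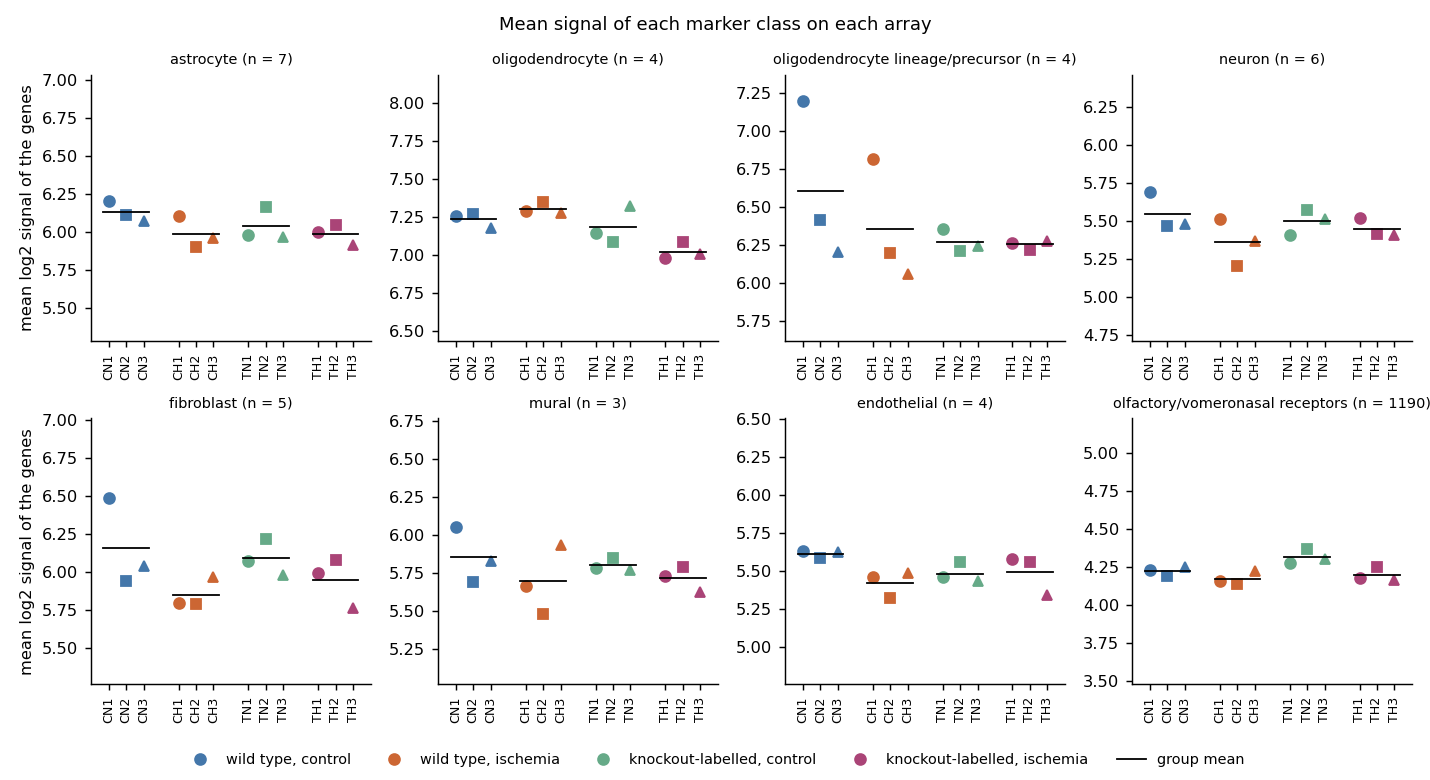
Mean log2 signal of the genes of each marker class, and of olfactory and vomeronasal receptor genes, on each of the 12 arrays; marker shapes give the array number and black lines the group means (n = 3 arrays). The lineage class is highest in CN1 (7.20) and CH1 (6.82), the fibroblast class in CN1 (6.48), and the receptor genes vary from 4.14 to 4.37.

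The first comparison asked whether the markers differed between wild-type cultures after ischemia and reperfusion and their controls. In CH against CN, 30 of the 33 signals were lower, with a median difference of -0.15. The dim receptor genes also moved down, by a median of -0.062 with 64.6% lower, whereas the median over the genes tested was 0.012. With quantile normalization 26 of the 33 were lower, and with median centring 25. Without both CN1 and CH1 the count was 26 of 33 and the median -0.13. Without CN1 alone the median was -0.081, and without CH1 alone it was -0.23. In the 3 pairs of same-numbered wild-type arrays, 14 of the 22 tested markers were lower after ischemia in each pair, against 22.9% of genes tested, and 2 were higher in each pair, against 25.8%.

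By limma without a replicate block, 0 of the 22 tested markers passed an adjusted p of 0.05 in CH against CN, and 0.0131% of genes tested did. At an unadjusted p under 0.05 there were 9 of 22 markers and 2241 of 15273 genes. Same-numbered arrays within a genotype deviated together, so a fit with that number as a block was run beside it. With the block, limma called 1 marker higher, against 2.99% of genes tested, and 1 lower, against 0.74%. Cnp rose by 0.43 (SE 0.097, 1.35-fold, limma adjusted p = 0.0273 with the block and 0.292 without). It was higher in 3 of 3 pairs, by 0.55, 0.28 and 0.46. Cldn5 fell by 0.41 (SE 0.10, 1.32-fold, limma adjusted p = 0.0416 with the block and 0.256 without), and was lower in 3 of 3 pairs. When the filter on dim genes was left out of the block fit, both missed the threshold (limma adjusted p = 0.0536 for Cnp and 0.0762 for Cldn5).

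The markers next in line did not pass in either fit. Aldh1l1 was 0.40 higher in CH (SE 0.13, limma adjusted p = 0.273), without overlap, and Gfap 0.35 lower (SE 0.11, limma adjusted p = 0.272), also without overlap. Among tested markers 1 lay wholly higher and 5 wholly lower in CH than in CN, against 9.38% and 12.3% of genes tested. The collagens Col1a1, Col1a2 and Col3a1 differed by -0.48, -0.38 and -0.32 (limma adjusted p = 0.298, 0.288 and 0.286). Without both wild-type arrays numbered 1 the Col1a1 difference was -0.18. The Pdgfra difference of -0.49 (SE 0.48, limma adjusted p = 0.63) turned to 0.15 when CN1 alone was left out, and was -0.30 without CN1 and CH1.

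**Figure D4:**
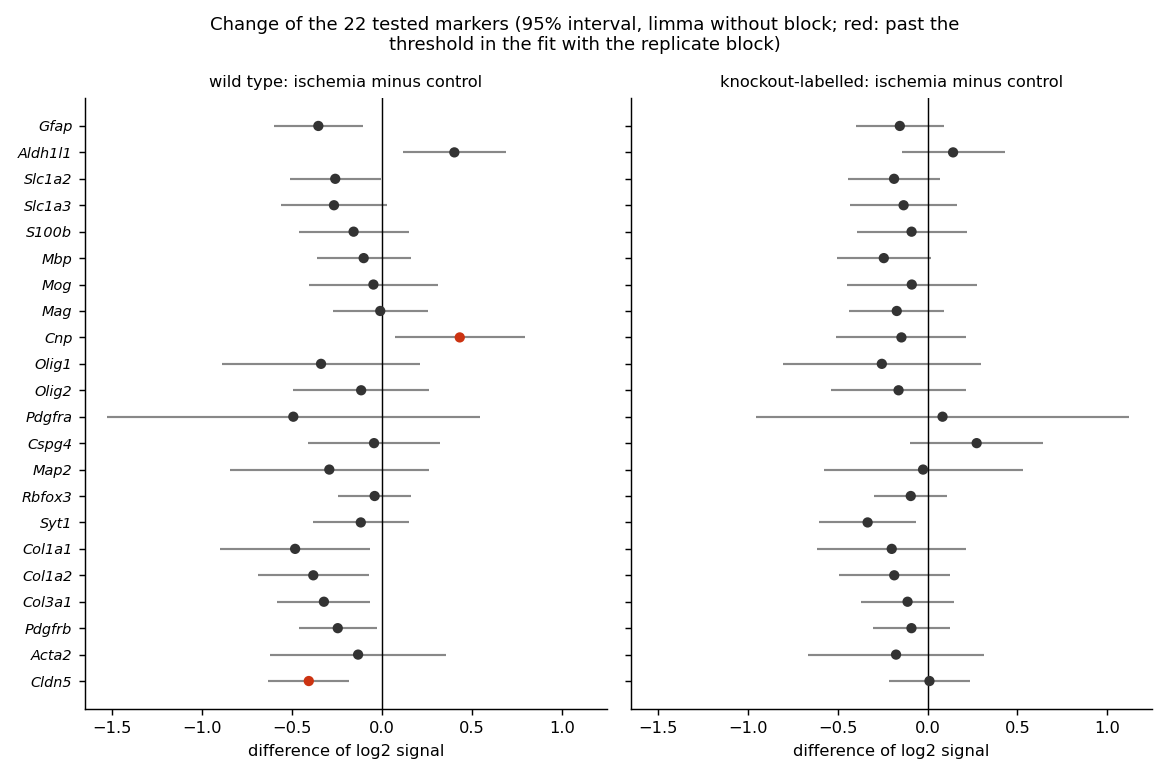
Difference of log2 signal, ischemia minus control, with its 95% interval from limma without a block, for the 22 tested markers in wild-type (left) and knockout-labelled arrays (right; n = 3 against 3). Most wild-type points lie left of 0, and Cnp and Cldn5, in red, are the 2 that passed with the replicate block.

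The same exposure was compared in knockout-labelled cultures. In TH against TN, 22 of 33 signals were lower, with a median of -0.089, beside a median of -0.11 for the dim receptor genes. Without TH3 the median was -0.029, and without TN2 it was -0.055. No tested marker passed by limma (0 of 22 without the block, where 0% of genes tested passed, and 0 of 22 with it, where 0.648% did). The single marker at an unadjusted p under 0.05, as were 1334 of 15273 genes, was Syt1, 0.33 lower in TH (SE 0.12, limma adjusted p = 0.56). Cnp differed by -0.15 and was lower in 3 of 3 pairs, and Cldn5 differed by 0.011. Olig1 was 0.25 lower, without overlap and in 3 of 3 pairs, but did not pass (limma adjusted p = 0.735 without the block and 0.21 with it). Pdgfra was 0.083 higher, and its groups overlapped. In each of the 3 pairs 8 of the 22 tested markers were lower, against 18.7% of genes tested, and 1, Cspg4, was higher, against 20.8%.

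The ischemia differences of the 2 genotypes were compared by the interaction term. None of the 22 markers passed by limma without the block, where 0% of genes tested did, and 2, Cnp and Cldn5, had an unadjusted p under 0.05, as had 443 of 15273 genes. With the block the count was also 0 of 22, against 0.308% of genes. For Cnp the knockout-labelled minus the wild-type difference was -0.58 (limma adjusted p = 1 without the block and 0.149 with it), and for Cldn5 it was 0.42 (limma adjusted p = 1 and 0.474). Cnp was the 1 non-microglial marker whose 3 pairs went one way in the wild type and the other way in knockout-labelled arrays, as did 2.9% of genes tested.

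Between genotypes the counts depended on which wild-type arrays were included. These comparisons share the CN or the CH arrays with the wild-type ischemia comparison. In control cells, TN against CN, 25 of 33 signals were lower in TN with a median of -0.074, whereas dim receptor genes were higher by a median of 0.084. Without both wild-type arrays numbered 1 the count was 18 of 33 and the median -0.0061, and without CN2 alone the median was -0.15. By limma 0 of 22 passed, against 0.0589% of genes tested, and 1, Syt1, had an unadjusted p under 0.05, as had 1091 of 15273 genes. Pdgfra was 0.93 lower in TN (SE 0.48, limma adjusted p = 0.705) and 0.28 lower without CN1.

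After ischemia, TH against CH, 20 of 33 signals were higher in TH, with a median of 0.059. Of 1190 dim receptor genes 712 were also higher, with a median of 0.035, so the marker count stood near theirs. Without both wild-type arrays numbered 2 the count of markers was 14 and their median turned to -0.018, as it did without CH2 alone. Without TH1 the marker median was -0.011, without TH2 0.022 and without TH3 0.12. By limma 0 of 22 passed, against 0.714% of genes tested, and 5 had an unadjusted p under 0.05, as had 1276 of 15273 genes. Aldh1l1 was 0.47 lower in TH (SE 0.13, limma adjusted p = 0.188) and Cnp 0.43 lower (SE 0.17, limma adjusted p = 0.465). Cspg4 was 0.47 higher (SE 0.17, limma adjusted p = 0.415), Cldn5 0.34 higher (SE 0.10, limma adjusted p = 0.258) and Mag 0.31 lower (SE 0.12, limma adjusted p = 0.48). Of the 22 tested markers 2 lay wholly higher and 3 wholly lower in TH than in CH, against 8.38% and 8.07% of genes tested. They were the 5 just named. A small p and groups that do not overlap draw on the same values, so the second adds no support to the first.

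**Figure D5:**
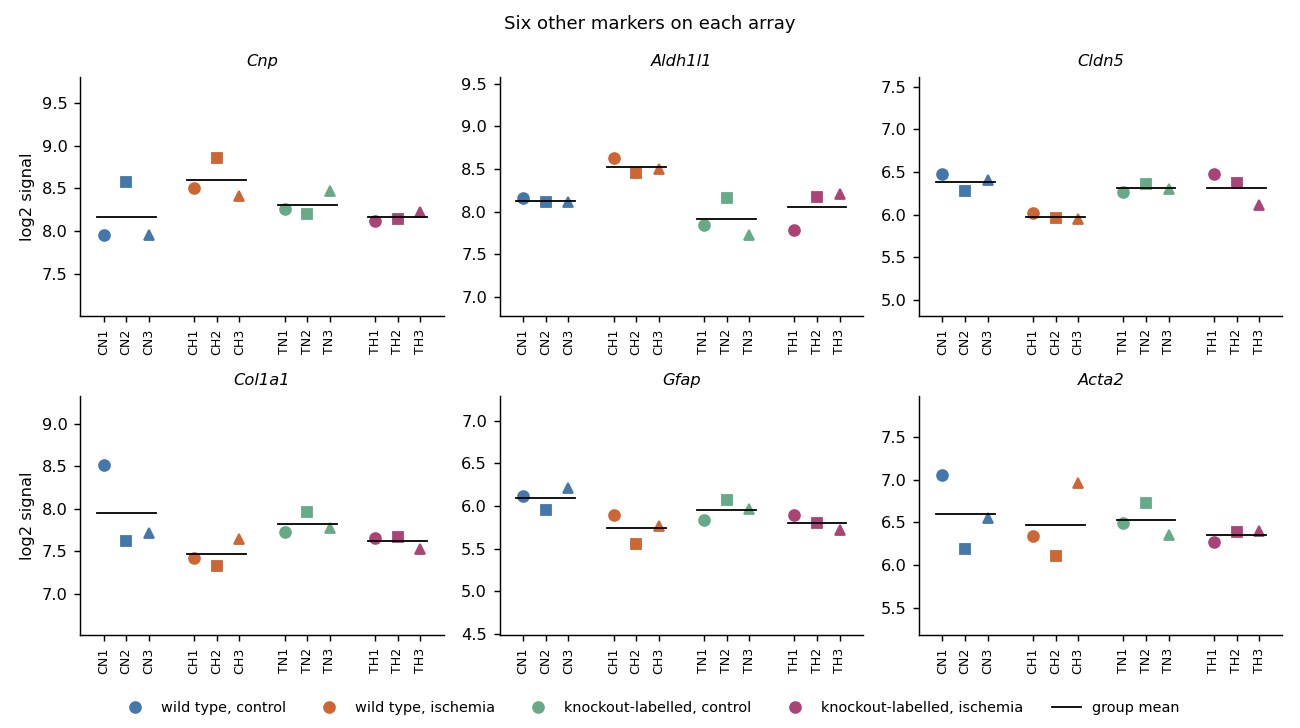
Log2 signal of Cnp, Aldh1l1, Cldn5, Col1a1, Gfap and Acta2 on each of the 12 arrays, drawn as circles, squares and triangles for arrays numbered 1, 2 and 3, with group means as black lines (n = 3). The CH arrays are the highest for Aldh1l1 and the lowest for Cldn5, and CN1 is the highest for Col1a1 and Acta2.

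A wider list of 68 further markers of the same cell types was read in the same way. In CH against CN 51 of the 68 were lower, with a median of -0.14, near that of the 33. By limma 0 of the 51 tested passed without the block, against 0.0131% of genes tested. At an unadjusted p under 0.05 there were 10 of the 51 and 2241 of 15273 genes. With the block 1 of the 51 was called higher, against 2.99% of genes tested, and 0 lower, against 0.74%. That was Flt1, a receptor for vascular endothelial growth factor that macrophages also carry, which rose by 0.42 in wild-type arrays (limma adjusted p = 0.0255). It rose by 0.55 in knockout-labelled arrays (limma adjusted p = 0.0182), again the 1 of the 51 called, against 0.648% of genes tested. Between genotypes the collagen cross-linking enzyme Lox was lower in TN than CN by 1.63 (limma adjusted p = 0.00676). It was lower in TH than CH by 1.91 (limma adjusted p = 0.000297), although the collagens it acts on did not pass. Lox was the 1 of the 51 called in each of these comparisons, against 0.0589% and 0.714% of genes tested. In each cell type the wider list also held markers above the dim line in all 4 groups. Among 12 further fibroblast markers 10 exceeded it, with Fn1 (11.05) and Lox (7.88) the highest. Among 11 further oligodendrocyte markers 3 did, Myrf (7.76), Sox10 (6.87) and Cldn11 (6.36). Of 12 further astrocyte markers 9 exceeded it in all 4 groups, among them the filament protein Vim (13.06) and the glutamine-making enzyme Glul (11.37), both also expressed by macrophages, the glycolytic enzyme Aldoc (8.69) and the growth factor receptor Fgfr3 (6.60). Of 12 further neuron markers 4 exceeded it in all 4 groups, the synaptic vesicle protein Syp (6.70), the enzyme Gad1 (6.67), which makes the transmitter GABA, and the RNA-binding proteins Elavl3 (6.71) and Celf4 (6.17). Of 11 further endothelial markers 5 did, Vwf (9.70), Flt1 (9.55), Eng (7.33), Kdr (6.94) and Mfsd2a (6.15). Of 10 further mural markers 4 did, Anpep (12.89), Notch3 (6.58), Myh11 (6.48) and Kcnj8 (6.35). The Anpep signal stood at the 99.7th percentile of probe sets, between those of the macrophage markers Csf1r (99.2) and Cd68 (99.8). Which cells gave the signals of the wider list was not tested.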

How the data were processed

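Deposited were log2 signals, 1 per probe set and array. The authors used RMA in Affymetrix Expression Console 1.1, per the submitters' processing notes, which corrects background, quantile-normalizes and summarises probes. Groups came from the sample titles. Of 35557 probe sets, 21789 had 1 symbol, 1621 several and 12147 none listed, and names were updated through Entrez identifiers (21698 matched). The brightest probe set stood for a gene. Genes with a mean at or under the 30th percentile of probe sets (5.36) were not tested, which left 15273. limma 3.58.1 in R 4.3.3 fitted 1 mean per group over 12 arrays, with Benjamini-Hochberg adjustment over all genes tested, and was tested on simulated data. Deviations of same-numbered arrays correlated at 0.485, 0.735 and 0.478 in the wild type and 0.356, 0.316 and 0.490 in knockout-labelled arrays. Differently numbered arrays ran from -0.619 to 0.399 (CN1 with CH3) in the wild type. In knockout-labelled arrays they ran from -0.439 to 0.219 (TN1 with TH2). The number was therefore a block within genotype, and between genotypes (-0.332 to 0.326) it was not. This pairing rests on the data alone, as no label explains the numbers.

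Values on every array are given for Gfap, Mbp, Olig2, Rbfox3, Col1a1, Acta2 and Cldn5, for markers called in either fit, and mainly for up to 3 more per class with the widest range above the dim line. The markers and lists were chosen with earlier results of these data known. Alternatives were the block, the arrays and groups in the fit, the filter, the normalization, the mean over probe sets and an intensity trend.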

Additional observations from a re-analysis of the deposited data

Results flagged for a closer look

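Cnp was the 1 non-microglial marker whose 3 wild-type pairs and 3 knockout-labelled pairs of same-numbered arrays all went opposite ways, as did 2.9% of genes tested. After ischemia its signal was higher by 0.55, 0.28 and 0.46 in the wild-type pairs and lower in the knockout-labelled pairs, by -0.14, -0.053 and -0.25. The difference of the 2 ischemia effects was -0.578 (limma, unadjusted p = 0.0294 and adjusted p = 1 without the replicate block; unadjusted p = 0.000881 and adjusted p = 0.149 with it), so it failed the correction in both fits. Without the wild-type arrays numbered 2, which were the highest for Cnp in their groups, it was -0.65 (limma adjusted p = 0.507 without the block). The microglia and macrophage markers Aif1, Csf1r, C1qa and C1qb were likewise higher in every wild-type pair and lower in every knockout-labelled pair.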

How the results depend on the processing

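Counts of called markers were the same under 90 of 91 alternatives, and single markers kept direction and side of the threshold under 345 of 348. The main fit called no marker and many alternatives used fewer arrays, so the first of these was largely set beforehand. The same holds for the side of the threshold, and neither count measures robustness. Class medians moved by less than the spread between arrays under 540 of 552, but some changed sign within it. The exceptions to these counts follow, and the cause was not tested. With the replicate block within genotype 2 markers were called in CH against CN, Cnp (0.433) and Cldn5 (-0.406). With a replicate block of 3 levels over all arrays, no marker was called in any of the 5 comparisons. Pdgfra in CH against CN ran from -0.944 to 0.154 with single arrays left out, and reversed to 0.154 without CN1. The lineage median had a spread of 0.33, wide through CN1 and CH1, and changed sign within it. In CH against CN it went from -0.226 to 0.0543 without CN1, and in TH against CH from -0.266 to 0.0478 without CH1. For the difference of the ischemia effects it went from 0.2 to -0.13 without CN1. In TN against CN the fibroblast median went from -0.0668 to 0.0915 without CN1. With single arrays left out, the mural median in CH against CN ran from -0.297 to -0.0251. In TH against CH the astrocyte median ran from 0.00393 to 0.145, the oligodendrocyte median from -0.352 to -0.262 and the endothelial median from -0.0344 to 0.148. For the difference of the ischemia effects the neuron median ran from 0.0465 to 0.228, the fibroblast median from 0.00031 to 0.312 and the endothelial median from 0.103 to 0.242. Without both wild-type arrays numbered 1, chosen after seeing the data, the fibroblast median was -0.161 in CH against CN and -0.0237 for the difference of effects. Without those numbered 2, also chosen after seeing the data, the TH against CH medians were 0.00393 for astrocyte and -0.0344 for endothelial markers. In groups of 3 arrays, and with 11 of the 33 markers too dim to test, small differences are not detectable.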

Other observations

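Among all genes tested, ranked after their values were seen by how far both CN1 and CH1 exceeded the highest of the other 10 arrays, Pdgfra had rank 3 (0.88), Olig1 rank 7 (0.52) and Map2 rank 9 (0.47). The genes above Pdgfra were the fatty acid desaturase Scd1 (1.12) and the transporter Flvcr2 (1.02). Ranked between Pdgfra and Map2 were the macrophage acid phosphatase Acp5 (0.72), Arfgef3 (0.54), the adhesion molecule Ncam1 (0.54) and the matrix protein Tnr (0.48). The next in order were Vsig8 (0.41), Dpysl3 (0.39) and the endothelin receptor Ednrb (0.37). No list was tested on this ranking.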
